A study of Mus musculus with 121 samples.

Results

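The comparison described here is that of LH with HH over all collections, in RNA of Per2::Luc mouse fibroblasts, immortalized ear cells that carry a PER2 luciferase knock-in and so report their own circadian clock as light. Every library whose title begins with LH (22) or HH (19) was taken, 41 of the 62 libraries of the series. The 21 HL libraries gave values alongside and entered only alternative fits, among them the one by library number. Both groups were kept in low medium first and then received 3 daily cycles of medium changes. In LH each cycle began with low medium, poor in glucose and without insulin, and continued with high medium, rich in glucose and with insulin, which stand for fasting and feeding. In HH high medium was renewed at every change, so HH cells had the same handling without a fasting phase. After the last cycle all cells stayed in high medium, and RNA was taken at 6 collections, with 3, 3, 4, 4, 4 and 4 LH libraries and 4, 3, 3, 2, 3 and 4 HH libraries in collections 1 to 6. The cells are 1 line. The study calls its replicates biological in general, while the labels do not say whether those of a collection were separate cultures, so p-values measure the spread between these samples.

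The names of the LH libraries are in dispute between sources. The titles give the groups used here, but the read summary of the study ties the same library numbers to other names. By number, 16 of the 22 libraries titled LH carry an HL name, 4 carry an LH name of collection 6 (collection 1 replicates 2, 3 and 4 and collection 2 replicate 1) and 2 are not listed (collection 2 replicates 2 and 4). The names of the HH libraries are the same in both sources. Values by library number, for the 19 libraries then called LH, are given beside the called genes and the main lists. Of the 50 named list members with an unadjusted p under 0.05 by titles that could be tested by number, 46 kept their direction and 17 of them that p as well, and 25 differences were smaller by more than 1.5 times. Which naming is right was not decided here. The clock hours in the titles also differ between the groups in collections 3 and 4, where LH is labelled 16 and 20 and HH 4 and 8.

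Fibroblasts build connective tissue, hold their own circadian clock and respond to insulin and glucose. Insulin signals through its receptor to AKT and mTORC1, which promote glucose uptake, lipid and protein synthesis and division, while low nutrients favour lysosomes and autophagy. Medium renewal and serum briefly induce immediate early genes such as Egr1 and, through the actin-sensing factor SRF, cytoskeletal genes such as Tagln. Interferon and NF-kB are the main inducers of the MHC class I genes, whose proteins show peptides at the cell surface.

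HH libraries held 3687321 to 11619095 counts and LH libraries 104912 to 8154566, and the lowest of them, LH collection 2 replicate 2, has about 1 count where a gene stands at 10 CPM, that is counts for each 1000000 counts of the library. Total counts, genes above 5 CPM, the share of reads on no feature and the share of mitochondrial counts did not differ detectably between LH and HH (two-sided permutation tests, adjusted p from 0.667 to 0.739). Of 5950 genes with a mean of at least 20 CPM, 1722 (28.9%) lay more than 2-fold from the 41-library median in LH collection 2 replicate 1, 1043 (17.5%) in HH collection 6 replicate 3 and 995 (16.7%) in the shallow library, against a median of 15 genes per library. Of 15 fibroblast markers, 14 had a mean of at least 5 CPM, and their summed level was 24009 to 42728 CPM in LH and 22727 to 45000 CPM in HH. Of 11 keratinocyte markers none had a mean of 5 CPM, Krt5, Krt1 and Dsg3 were at 0 in all 41 libraries, and the sum was 3.66 to 28.6 CPM in LH and 3.81 to 16.2 CPM in HH. The 10 muscle and mural cell markers summed to 14.8 to 43.6 CPM in LH and 16.5 to 45.6 CPM in HH, with the muscle genes Myod1 and Myh3 at 0 but the mural genes Notch3 (means of 23.9 and 20.3 CPM in LH and HH) and Cspg4 (8.49 and 10.6 CPM) measured. The 9 neural crest and glial markers summed to 8.34 to 26.5 CPM in LH and 7.94 to 20.3 CPM in HH, with Tyr at 0 and Mitf above 5 CPM. The 10 endothelial markers summed to 24.5 to 247.6 CPM in LH and 145.7 to 269.7 CPM in HH, nearly all of it Kdr, and the 11 cartilage markers to 380.6 to 1130 CPM and 294.02 to 670.6 CPM, nearly all of it Sox9, with Matn1 and Chad at 0. The 9 adipocyte markers summed to 2.75 to 16.0 CPM in 39 libraries, to 57.2 CPM in the shallow library and to 99.7 CPM in LH collection 2 replicate 4. The 10 macrophage and leukocyte markers summed to 16.6 to 60.9 CPM in 40 libraries and to 648 CPM (68 counts) in the shallow one. The part of these cell types in the results was not tested.

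Mean expression over all collections differed between LH and HH at very few genes. Of 12932 genes tested with edgeR's quasi-likelihood test and a term for collection, 3 passed a Benjamini-Hochberg adjusted p of 0.05 (0.0232% of the genes tested), with H2-K1 higher in LH (0.00773%) and C2cd5 and Speer9-ps1 lower (0.0155%). Before adjustment 743 genes (5.75%) had p under 0.05, 338 higher (2.61%) and 405 lower (3.13%) in LH, and 147 (1.14%) had p under 0.01. The median log2 fold change over all genes was -0.00171. Of 185 genes with an absolute log2 fold change over 1, 183 had a mean under 5 CPM, and the 2 above it were Ccl2, a monocyte chemokine, and Ereg, an EGF receptor ligand, both named after their values were seen. Without the shallow library 1 of 12907 genes passed the adjusted threshold (0.00775%) and 777 the unadjusted one (6.02%).

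Precision depended on level. The median standard error of the log2 fold change was 0.0795 for the 1705 genes at 100 CPM or more, 0.0946 between 20 and 100 CPM, 0.146 between 5 and 20 CPM and 0.567 for the 1523 genes below 1 CPM. The 95% confidence interval of the fold change lay within 1.5-fold of no change in either direction for 97.9% of the genes at 100 CPM or more and 85.5% of those between 5 and 20 CPM, but for 0.394% of those below 1 CPM. For most genes above 5 CPM a mean difference beyond 1.5-fold is therefore outside the interval, while below 1 CPM nearly all intervals were wider, and only larger differences could be resolved at this depth.

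**Figure D1:**
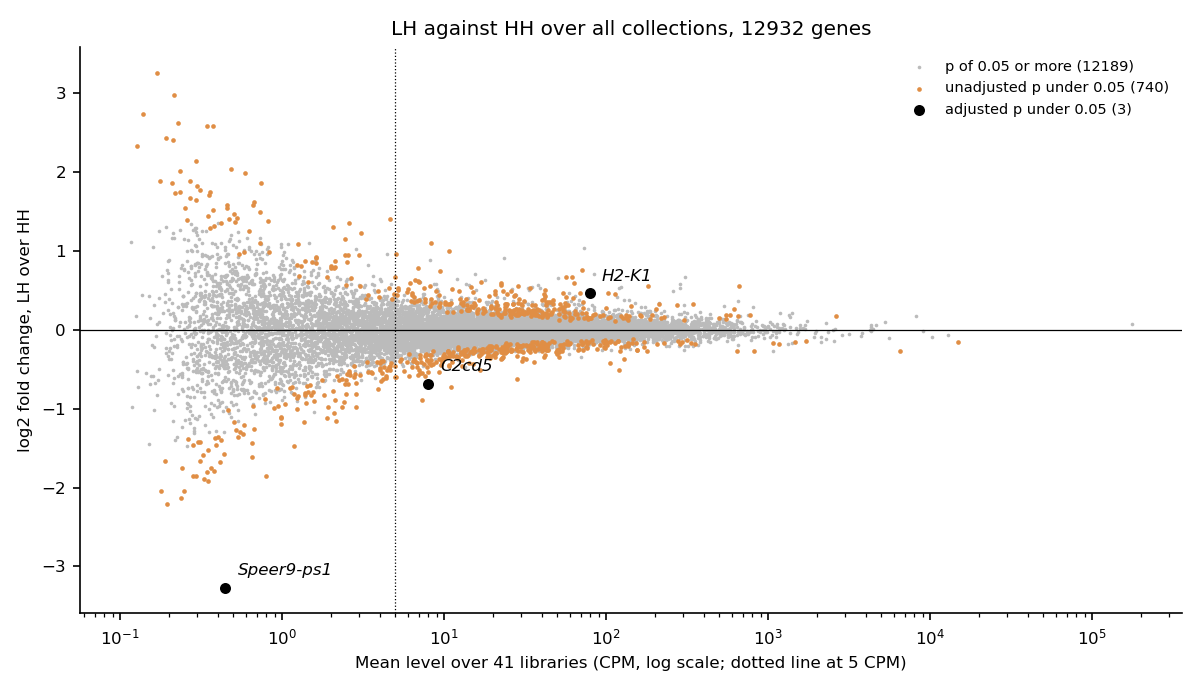
Log2 fold change of LH over HH (y axis) against the mean level over 41 libraries in CPM (x axis, log scale) for each of the 12932 genes tested, with the 3 genes past the adjusted threshold in black and those with unadjusted p under 0.05 in orange. Changes beyond 1 on the log2 scale lie almost wholly left of the dotted line at 5 CPM, and H2-K1 and C2cd5 stand at the edge of the genes of their level.

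H2-K1 (ENSMUSG00000061232, mm10 chr17:33996017-34000347, minus strand) encodes a classical MHC class I heavy chain. Its level was 61.1, 86.7 and 123.9 CPM in the lowest, median and highest LH library and 44.4, 66.2 and 90.5 CPM in the corresponding HH libraries. The groups overlapped, with 10 of 22 LH libraries above every HH library and 19 above the HH median. The mean was 89.5 ± 18.9 CPM (SD, n = 22) in LH and 67.1 ± 12.6 CPM (SD, n = 19) in HH, a 1.38-fold higher level (log2 fold change 0.47, SE 0.08, edgeR adjusted p = 0.0123). H2-K1 was higher in LH in 6 of 6 collections, by 0.75, 0.77, 0.25, 0.48, 0.27 and 0.38 on the log2 scale in collections 1 to 6. In collection 1 the LH libraries held 86.7 to 123.9 CPM and the HH libraries 50.5 to 86.8 CPM, and in collection 2 they held 96.0 to 122.6 and 47.7 to 90.5 CPM. In bulk RNA, a smaller share of cells expressing a gene and less of its RNA per cell cannot be told apart.

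The H2-K1 call was kept in all 41 refits that left out 1 library (highest edgeR adjusted p 0.0389) and without the shallow library (0.0158). Over all 75 alternatives it was kept in 61 and lost in 14, each with H2-K1 higher in LH, and the adjusted p ran from 0.000535 to 0.598. It was lost by library number (log2 fold change 0.26, edgeR adjusted p = 0.598), with LH and HL titled libraries together against HH (0.393), with all 62 libraries in 1 model (0.122), without the term for collection (0.124) and with counts thinned to a common total (0.421). Leaving out every LH library of replicate 2, 3 or 4 gave 0.0779, 0.0883 and 0.0854, and leaving out every HH library of replicate 1 gave 0.437. Leaving out collection 1, 2, 5 or 6 gave 0.194, 0.0808, 0.0639 and 0.0848, and leaving out collections 1 and 2 together gave 0.572 (log2 fold change 0.33). The HL libraries had a median of 72.7 CPM. H2-K1 shares much sequence with other class I genes, so the counting of uniquely aligned reads could divide reads among them.

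The 250 bases before the start of transcription are shown for H2-K1 and C2cd5, the coding genes past the adjusted threshold, for the class I gene H2-D1 and for Ifit1, an interferon-induced gene. The sequences are from RefSeq (GRCm38.p6), written 5′ to 3′ along the gene's strand, with matches in capitals. The motifs searched on both strands were the kappa B motif, 2 interferon response motifs and the E-box CACGTG. The kappa B motif is GGG and TTCCC with any 2 bases between them. The interferon motifs are GAAA followed by GAAA and GAA followed by GAAA, each with any 2 bases between, of which the second can overlap the first. None of the promoters shown holds the E-box, which 6.02% of mouse promoters hold.
H2-K1, chr17:34000348-34000597, minus strand: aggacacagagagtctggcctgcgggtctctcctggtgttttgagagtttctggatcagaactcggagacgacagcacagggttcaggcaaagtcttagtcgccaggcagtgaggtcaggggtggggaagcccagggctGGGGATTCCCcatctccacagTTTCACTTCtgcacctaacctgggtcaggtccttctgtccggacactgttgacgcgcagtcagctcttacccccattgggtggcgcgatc
H2-D1, chr17:35262844-35263093, plus strand: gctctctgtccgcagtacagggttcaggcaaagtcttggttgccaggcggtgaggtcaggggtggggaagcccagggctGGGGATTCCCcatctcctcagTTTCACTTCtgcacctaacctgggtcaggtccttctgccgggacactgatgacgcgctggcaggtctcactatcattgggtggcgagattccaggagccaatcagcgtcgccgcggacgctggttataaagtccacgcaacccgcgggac
Ifit1, chr19:34640639-34640888, plus strand: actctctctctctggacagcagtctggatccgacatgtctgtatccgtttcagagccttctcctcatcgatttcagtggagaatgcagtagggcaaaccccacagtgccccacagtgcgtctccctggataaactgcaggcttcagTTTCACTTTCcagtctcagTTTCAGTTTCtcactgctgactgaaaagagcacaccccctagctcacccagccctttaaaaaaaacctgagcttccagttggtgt
C2cd5, chr6:143100153-143100402, minus strand: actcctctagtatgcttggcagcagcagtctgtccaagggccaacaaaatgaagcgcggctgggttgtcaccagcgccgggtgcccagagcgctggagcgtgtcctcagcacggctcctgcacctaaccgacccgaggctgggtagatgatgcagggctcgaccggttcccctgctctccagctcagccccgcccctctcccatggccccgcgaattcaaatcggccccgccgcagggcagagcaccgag
H2-K1 has 2 annotated starts, and the sequence shown is that of the first. The kappa B match lies 111 to 102 bases before this start and the interferon match, on the opposite strand, 90 to 82 bases before it. Counted from the second start they lie at 125 to 116 and 104 to 96 bases. H2-D1 holds the same pair of matches 171 to 162 and 150 to 142 bases before its start, and Ifit1 holds 2 matches of the longer interferon motif at 104 to 95 and 85 to 76 bases and none of the kappa B motif. C2cd5 holds no match. Of 32851 mouse promoters of this length, 1.53% held the kappa B motif, 8.82% held either interferon motif and 0.155% held both kinds. These matches are letters in a window and not measured binding sites.

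C2cd5 (ENSMUSG00000030279, chr6:143010920-143100141, minus strand) encodes a C2-domain protein that takes part in insulin-stimulated delivery of the glucose transporter GLUT4 to the plasma membrane. Its lowest, median and highest levels were 0, 6.76 and 9.85 CPM in LH and 4.46, 10.8 and 15.2 CPM in HH. The library at 0 is the shallow one, and 5 LH libraries lay below every HH library. The mean was 6.22 ± 2.29 CPM (SD, n = 22) in LH and 10.0 ± 3.03 CPM (SD, n = 19) in HH, and C2cd5 fell by 0.68 on the log2 scale (SE 0.13, edgeR adjusted p = 0.0385), with a lower level in LH in 6 of 6 collections. Without the shallow library the adjusted p was 0.0510, and it stayed under 0.05 in 14 of the 41 refits that left out 1 library (highest 0.12). By library number the log2 fold change was -0.56 (adjusted p = 0.559), and the HL libraries had a median of 6.42 CPM.

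Speer9-ps1 (ENSMUSG00000107956, chr7:3128146-3144992, plus strand) is annotated as a long intergenic RNA and named as a pseudogene of the Speer family of testis genes. It stood near the detection limit, with 12 counts over the 22 LH libraries, 17 of them at 0, and 100 counts over the 19 HH libraries, 5 of them at 0. Its highest level was 1.05 CPM in LH and 3.12 CPM in HH, so the groups overlapped at the low end. It reached 1 CPM in 3 libraries, the condition for being tested, through HH, so a gene at this level had to be higher there to be tested at all. The fitted log2 fold change was -3.27 (SE 0.65, edgeR adjusted p = 0.0385), the adjusted p was 0.0510 without the shallow library, and it stayed under 0.05 in 14 of 41 refits that left out 1 library (highest 0.258). Members of such gene families share near-identical sequence, which makes these counts uncertain.

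Morf4l2, a subunit of a histone acetyltransferase complex, came next by p. It stood at 14.3, 29.8 and 49.6 CPM in the lowest, median and highest LH library and at 28.4, 38.9 and 56.8 CPM in HH, with 8 LH libraries below every HH library. The mean was 31.0 ± 8.2 CPM in LH and 41.3 ± 8.0 CPM in HH (log2 fold change -0.40, SE 0.09, edgeR adjusted p = 0.0846). It passed the adjusted threshold with DESeq2 and with limma voom, and in 7 of 75 alternatives in all.

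**Figure D2:**
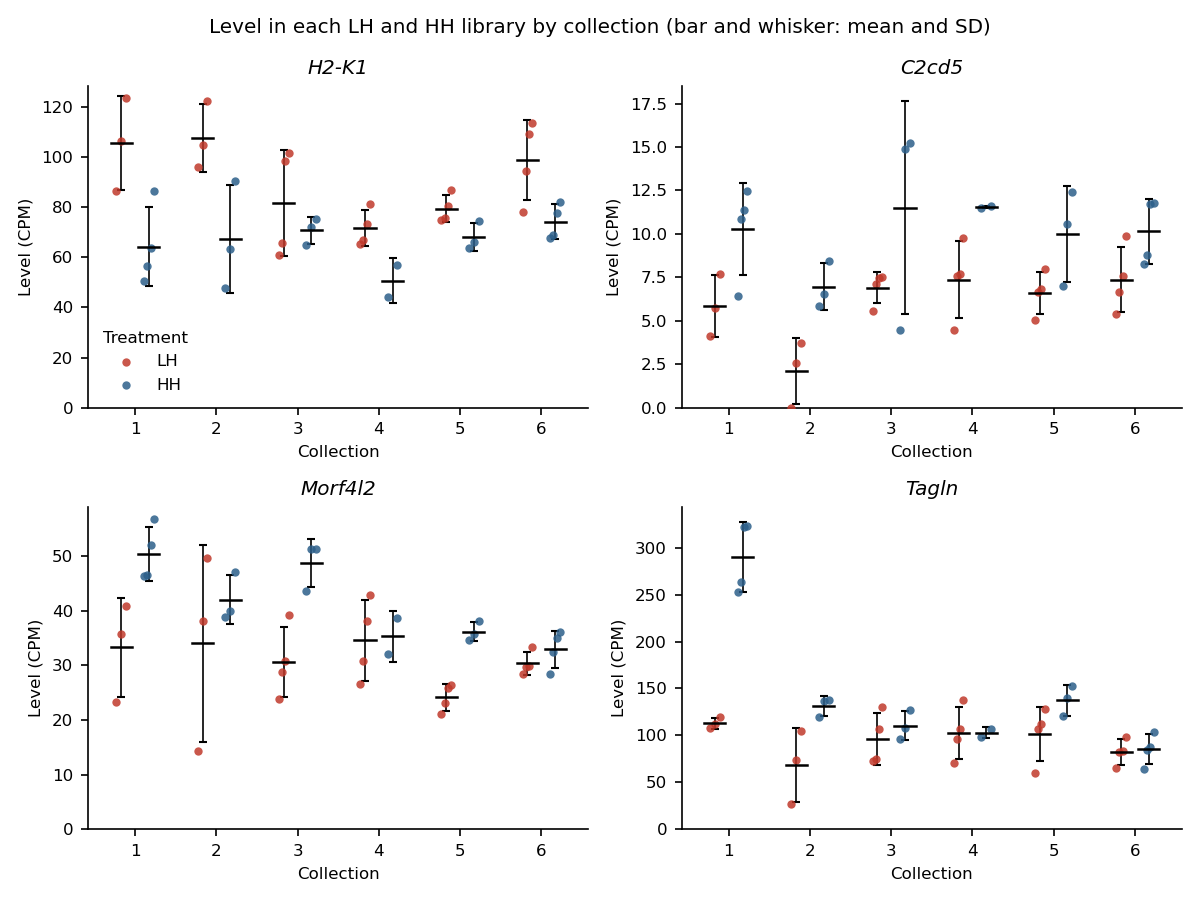
Level in CPM (y axis) of H2-K1, C2cd5, Morf4l2 and Tagln in each LH and HH library by collection (x axis), with points for libraries and bars and whiskers for the mean and SD. H2-K1 has a higher and C2cd5 a lower mean in LH in all 6 collections, the points of H2-K1 overlap in collections 1, 3 and 6 and those of C2cd5 in collections 1, 3, 5 and 6, and Tagln does not overlap in collection 1 (HH 252.97 to 323 CPM, LH 108 to 119 CPM) and collection 2 (HH 119 to 137 CPM, LH 26.5 to 104.9 CPM).

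The other genes with the smallest p at a mean of 5 CPM or more did not pass the adjusted threshold (edgeR adjusted p of 0.313 or more), and their values are given as a description. Among those lower in LH, Tagln, the actin-binding transgelin, had a log2 fold change of -0.51 (94.3 CPM in LH, 149.7 CPM in HH), made up of -1.33 and -1.28 in collections 1 and 2 and -0.03 to -0.40 in the others, and by library number it had -0.15 (unadjusted p = 0.161). Hist2h2ac, a replication-dependent histone H2A gene with near-identical copies, had -0.72, and in collection 1 its LH libraries held 4.10 to 10.5 CPM and its HH libraries 15.2 to 27.9 CPM. Rbm3, a cold-inducible RNA-binding protein, had -0.37 and was lower in LH in 6 of 6 collections. Cops7a, a COP9 signalosome subunit, had -0.43. Smarcad1, a chromatin remodeller, had -0.30 with 6 LH libraries below every HH library, and Snrnp70, the U1 snRNP protein, had -0.19 (median 127 CPM in LH, 146 CPM in HH). Zdhhc21, a palmitoyltransferase, had -0.34, Rflnb, a filamin-binding protein, had -0.42 and Spata6 had -0.45. Plk2, a p53-responsive polo-like kinase, had -0.40 with 21 of 22 LH libraries below the HH median.

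By library number all 24 genes with the smallest p, 12 in each direction and with H2-K1, C2cd5 and Morf4l2 among them, kept their direction, 10 with an unadjusted p under 0.05, and 13 of the differences were smaller by more than 1.5 times. Those of Rbm3, Plk2, Ly6c1 and Szrd1 became -0.10, -0.14, 0.13 and 0.07. Among genes higher in LH, 2900060B14Rik, a noncoding RNA, had the log2 fold change 0.55, with a median of 208 CPM in LH and 133 CPM in HH. Ly6c1, a GPI-anchored surface protein, had 0.56 with 10 LH libraries above every HH library. Parp10, an interferon-inducible ADP-ribosyltransferase, had 0.49 (median 24.0 CPM in LH, 17.7 CPM in HH) and Pdgfrl, related to the PDGF receptor, had 0.52. Pcnx3 had 0.33, Itm2a, a membrane protein, had 0.32, Ap2a1, a subunit of the clathrin adaptor AP-2, had 0.36 and Micu3, a regulator of mitochondrial calcium uptake, had 0.31. The smallest differences, in Trim28 (0.19), Szrd1 (0.19) and Stk24 (0.20), belonged to genes measured with standard errors of 0.06. Trim28 is a corepressor of KRAB zinc finger proteins and Stk24 a STE20-family kinase.

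Below 5 CPM, the smallest p after Speer9-ps1 belonged to Shisal1 and to Cnmd, the cartilage protein chondromodulin. Shisal1 was at 0 in 15 of 22 LH and 18 of 19 HH libraries and Cnmd in 8 and 12 of them. Their highest LH levels were 2.76 and 2.81 CPM. Both reached 1 CPM in 3 libraries only through LH, so at these levels they had to be higher there to be tested, and their p is no support for a difference.

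Interferon and MHC class I genes lay mostly higher in LH. Of 35 tested, 33 had a higher and 2 a lower mean, the median log2 fold change was 0.247 beside -0.00171 over all genes, and 8 (22.9%) had an unadjusted p under 0.05, all higher, where 2.61% of all genes did so. With limma voom 3 were higher and 1 lower past it, and the median was 0.109. Only H2-K1 of them passed the adjusted threshold. The other class I chain H2-D1 had 0.18 (SE 0.07, unadjusted p = 0.0148) and the light chain B2m 0.17, with 16 and 18 of 22 LH libraries above the HH median. By library number H2-D1 had 0.02 (unadjusted p = 0.827) and B2m 0.17 (0.0535). Among interferon-induced genes, Ifit1, which binds foreign RNA, stood at 17.5, 67.2 and 282.2 CPM in the lowest, median and highest LH library and at 9.36, 34.4 and 239.2 CPM in HH (log2 fold change 0.76, SE 0.32). Ifit3 had 0.67, the antiviral enzyme Rsad2 0.79 and the RNA sensor Ifih1 0.48. The peptide transporter Tap1 had 0.01 and was not past the unadjusted threshold.

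The interferon list was not even over collections or libraries. Its median was 0.719 and 0.903 in collections 1 and 2, -0.0805 and -0.118 in collections 3 and 4, and 0.265 and 0.00428 in collections 5 and 6. By the mean of log2(CPM + 0.5) over its members, 13 of 22 LH libraries lay above the HH median and 9 below it. The highest of all was HH collection 6 replicate 4 at 6.10, and the highest LH library stood at 5.92. For Ifit1 the LH libraries of collection 1 held 88.8 to 187 CPM and the HH libraries 16.0 to 26.8 CPM, so they did not overlap. In collection 2 LH replicate 1 held 282.2 CPM and the other LH libraries 38.1 CPM (4 counts) and 27.6 CPM. Without LH collection 2 replicate 1 the list had 2 members past the unadjusted threshold and a median of 0.150, with Ifit1 at 0.47, Ifit3 at 0.39, Rsad2 at 0.47 and Ifih1 at 0.28, and without HH collection 6 replicate 4, where Ifit1 stood at 239.2 CPM, it had 19. It had 5 without HH collection 2 replicate 1 or 3, LH collection 5 replicate 2 or LH collection 1 replicate 2, and 14 without HH collection 3 replicate 4 or HH collection 4 replicate 4. Without collections 1 and 2 it had 17 members higher and 18 lower, with a median of -0.00943, and by library number it had 27 higher and 8 lower, with 3 higher and 1 lower past the threshold and a median of 0.178, with Ifit1 at 0.41 and Ifit3 at 0.23.

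Mitotic genes lay lower in LH. Of 48 members of the list for mitosis and chromosome segregation, 45 had a lower mean, the median was -0.256, and 12 (25%) had an unadjusted p under 0.05, all lower, where 3.13% of all genes did so. With limma voom 27 were lower past it, with a median of -0.369. None passed the adjusted threshold of edgeR. The proliferation antigen Mki67 stood at 5.08, 12.6 and 47.7 CPM in the lowest, median and highest LH library and at 3.21, 19.8 and 34.9 CPM in HH (log2 fold change -0.51, SE 0.18, unadjusted p = 0.008), and 19 of 22 LH libraries lay below the HH median. The LH library at 47.7 CPM is the shallow one, with 5 counts. The spindle protein Dlgap5 had -0.98, the mitotic cyclin Ccnb2 -0.61, the checkpoint kinase Ttk -0.50, the condensin subunit Ncapg -0.35 and the cytokinesis protein Anln -0.38. By library number Dlgap5 had -0.32, Ccnb2 -0.21, Ttk -0.11, Ncapg -0.19 and Anln -0.22, none past the unadjusted threshold, and Mki67 -0.38 (unadjusted p = 0.0404). Of 44 genes of DNA replication and S phase, 33 were lower and 11 higher with a median of -0.168, and the 4 past the unadjusted threshold were the primase subunit Prim2 (-0.58), the cyclin Ccne2 (-0.43), the ligase Lig1 (-0.24) and the polymerase Pola1 (-0.24). With 1 library left out, 2 to 7 of the S phase genes were lower past the threshold, and with limma voom 11 were. By library number 24 were lower and 20 higher with a median of -0.0409, and 0 were lower and 2 higher past it with edgeR.

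The lower mitotic level came mostly from collection 1. The list's median was -1.27 there, -0.514 in collection 2, -0.175, 0.0599 and 0.264 in collections 3, 4 and 5, and -0.256 in collection 6. The S phase list had medians of -0.824 and -0.255 in collections 1 and 2 and 0.0123 to 0.135 in the others, and without these 2 collections its median was 0.0349. Without collection 1 the mitotic list had 1 member past the unadjusted threshold and a median of -0.0780, and without collections 1 and 2 it had 24 higher and 24 lower. It had 7 members past the threshold without LH collection 2 replicate 1, without LH collection 1 replicate 3 and without LH collection 1 replicate 4. By library number 38 of 48 were lower, 5 of them past the threshold, with a median of -0.168.

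**Figure D3:**
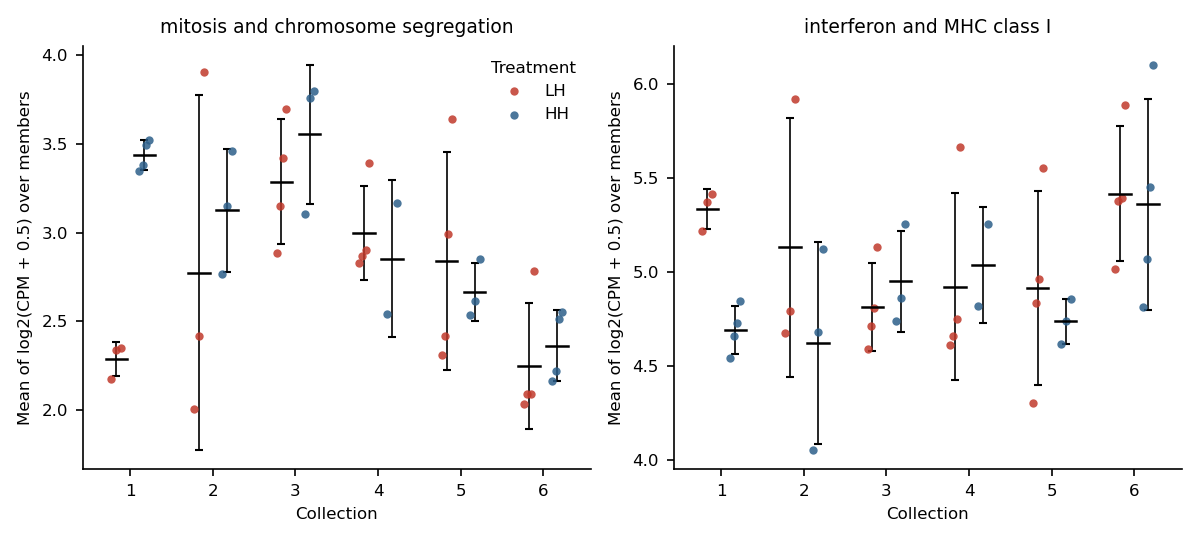
Mean of log2(CPM + 0.5) over the members (y axis) of the list for mitosis (left) and the list for interferon and MHC class I (right) in each LH and HH library by collection (x axis), with points for libraries and bars and whiskers for the mean and SD. In collection 1 LH lies below HH for mitosis and above it for interferon, while collections 3 and 4 overlap for both.

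Matrix genes showed small differences. Of 22 collagen chains 19 were lower in LH, with a median of -0.174 and 3 (13.6%) lower past the unadjusted threshold, where 3.13% of all genes were. With limma voom 5 were lower past it. By library number 12 of 20 were lower, with a median of -0.0329 and 1 higher and 1 lower past it. Col1a1, the main fibrillar collagen chain of fibroblasts, stood at 2529, 5730 and 9147 CPM in the lowest, median and highest LH library and at 2778, 7276 and 9983 CPM in HH (log2 fold change -0.27, SE 0.10, unadjusted p = 0.011). Col1a2 had -0.16 and Col6a3 -0.19. The collagen median was -0.804 in collection 2 and -0.214 to 0.137 in the others, and without collection 2 no member had an unadjusted p under 0.05. Leaving out 1 library gave 1 to 10 such members, 10 of them without HH collection 6 replicate 3. Among other matrix genes Postn, a matricellular protein, was below the HH median in 22 of 22 LH libraries (median 762 CPM in LH, 954 CPM in HH, log2 fold change -0.27, unadjusted p = 0.008, adjusted p = 0.849), and by library number its difference was -0.22. Fbln2 had -0.27, the crosslinking enzyme Lox -0.16, the protease inhibitor Timp1 -0.25 and the receptor Tgfbr2 -0.17. By library number Col1a1, Lox, Fbln2 and Timp1 changed sign, with 0.02, 0.08, 0.01 and 0.000891. Collagen processing enzymes (27), other matrix glycoproteins and proteoglycans (46), matrix proteases (26) and TGF-beta genes (28) had medians of -0.0164, -0.0191, -0.0666 and -0.0322, each of which changed sign in at least 1 of the 75 alternatives.

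Immediate early genes, induced within minutes of a stimulus, were higher in LH for 21 of 28 (median 0.121), with 3 higher and 1 lower past the unadjusted threshold, which 2.61% and 3.13% of all genes passed in these directions. By library number 15 of 28 were higher (median 0.0333), with 5 higher and 1 lower past it, and with limma voom 16 were higher (median 0.043), with 2 in each direction past it. Egr1, a zinc finger factor, stood at 16.99, 39.3 and 55.3 CPM in the lowest, median and highest LH library and at 8.60, 25.9 and 52.9 CPM in HH (log2 fold change 0.54, unadjusted p = 0.004), and 20 of 22 LH libraries lay above the HH median. Egr3 had 0.49, Junb 0.26 and Myc -0.31. The list's median was 1.12 in collection 2 and -0.0453 to 0.0709 in the others, and 1 to 7 members were higher past the threshold when 1 library was left out, 1 without LH collection 2 replicate 1 and 7 without HH collection 6 replicate 4. Genes of NF-kB and chemokines (22) had 4 members higher past the unadjusted threshold, where 2.61% of all genes were, namely Ccl2 (1.10), Cxcl1 (0.995), Nfkbiz (0.75) and Cxcl5 (0.92), and a median of 0.0596. The list's median was 0.596 in collection 2 and -0.0926 to 0.131 in the others. In collection 2, 7 members were higher past the adjusted threshold, where 5.82% of all genes were. Without collection 2, 1 member was past the unadjusted threshold, and without collections 1 and 2 it was 0. With 1 library left out 2 to 7 were past it, 2 without LH collection 6 replicate 1 and 7 without HH collection 6 replicate 4 or LH collection 6 replicate 3. By library number 12 of 22 were higher (median 0.0227), with 3 higher and 1 lower past it. Without LH collection 2 replicate 1 Ccl2 had 0.68 and Nfkbiz 0.50. Cxcl1, a neutrophil chemokine, reached 141.7 CPM in LH collection 2 replicate 1 and had a median of 5.18 CPM in LH and 2.98 CPM in HH. Of 30 SRF targets and actin genes 25 were lower (median -0.0898), with Tagln and the calponin Cnn1 (-0.31) lower past the unadjusted threshold, beside 3.13% of all genes. It was 5 with limma voom and without LH collection 2 replicate 4, and by library number 18 of 30 were lower with a median of -0.0161.

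Lysosome and autophagy genes were higher in LH for 31 of 37 members, by little. The median was 0.0711, it was above 0 in all 75 alternatives (0.0382 to 0.199) and in 6 of 6 collections (0.0561 to 0.237), and 5 members (13.5%) were past the unadjusted threshold, all higher, where 2.61% of all genes were. Among them were the cathepsin proteases Ctsl (0.19), Ctsd (0.18) and Ctsb (0.13) and the beta-galactosidase Glb1 (0.20). Ctsd stood at 417, 576 and 724 CPM in the lowest, median and highest LH library and at 271.6, 536 and 621 CPM in HH. By library number 29 of 37 were higher, with 9 higher and 1 lower past the threshold, where 4.34% and 3.36% of all genes were. Ctsl then had 0.06. The mean log2 level of the list had an SD of 0.130 between libraries around the mean of their group and collection. That is a spread of single libraries and not the error of the list median.

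Among genes of glucose and insulin handling, none of 11 genes of glucose sensing and transport or of 28 genes of glycolysis and the pentose phosphate pathway had an unadjusted p under 0.05, beside 5.75% of all genes, with medians of 0.0307 and 0.0210. Of 32 genes of insulin and IGF signalling, Stc1, which encodes stanniocalcin, had 0.68 and the IGF2 receptor Igf2r -0.17. For Stc1 the LH libraries reached 609 CPM with a median of 37.4 CPM, and the HH median was 31.9 CPM. Without LH collection 2 replicate 1 Stc1 had 0.32. Of 24 genes of mTORC1 and AMPK the mTOR partner Mlst8 had 0.24 and the AMPK kinase Stk11 0.17 (median 139 CPM in LH, 132 CPM in HH), and without that library Stk11 had 0.098. Sterol synthesis (25) had Nsdhl at 0.20 and Insig1 at -0.21, and fatty acid genes (28) had Lipe at 0.49 and Scd2 at -0.15. All of these had an edgeR adjusted p of 0.852. Heat shock chaperones were higher for 20 of 22 (median 0.0777), but for 11 of 22 without LH collection 2 replicate 1 (median 0.0108) and 12 with limma voom (0.0145). Hspa1b had 0.49, or 0.26 without that library. Hspb1 had -0.996 (SE 0.35) near the detection limit, with a median of 0.63 CPM in LH and 1.14 CPM in HH. NRF2 targets were higher for 20 of 24 (median 0.0733), and for 15 by library number. By the mean of log2(CPM + 0.5) over members, however, 9 of 22 LH libraries lay above the HH median and 13 below it. Genes of ATF4 (25), the unfolded protein response (23), hypoxia (19) and p53 (30) had medians of 0.0686, 0.00204, 0.0495 and -0.0122. Without LH collection 2 replicate 1 the ATF4 median was -0.0239 (9 higher, 16 lower) and the hypoxia median 0.0104, and with limma voom they were -0.0419 and -0.0352. Cytosolic (80) and mitochondrial (77) ribosomal proteins, proteasome subunits (37), nuclear respiratory chain subunits (75) and genes of mitochondrial DNA (12) had medians of -0.0275, -0.00908, 0.0228, 0.00488 and 0.128, with 1, 5, 2, 0 and 0 members past the unadjusted threshold, shares near or below the 5.75% of all genes, and glucocorticoid-responsive genes (13) had a median of 0.0683. Among these lists, the medians of mitochondrial DNA genes (0.00317 to 0.184) and of mTORC1 and AMPK (0.0226 to 0.248) kept their sign in all 75 alternatives, and each other median printed here changed it in at least 1. Of the 75, 41 left out 1 library of the same set. By the mean of log2(CPM + 0.5) over mitochondrial DNA genes, 15 LH libraries lay above and 7 below the HH median. For mTORC1 and AMPK 9 lay above and 13 below it.

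**Figure D4:**
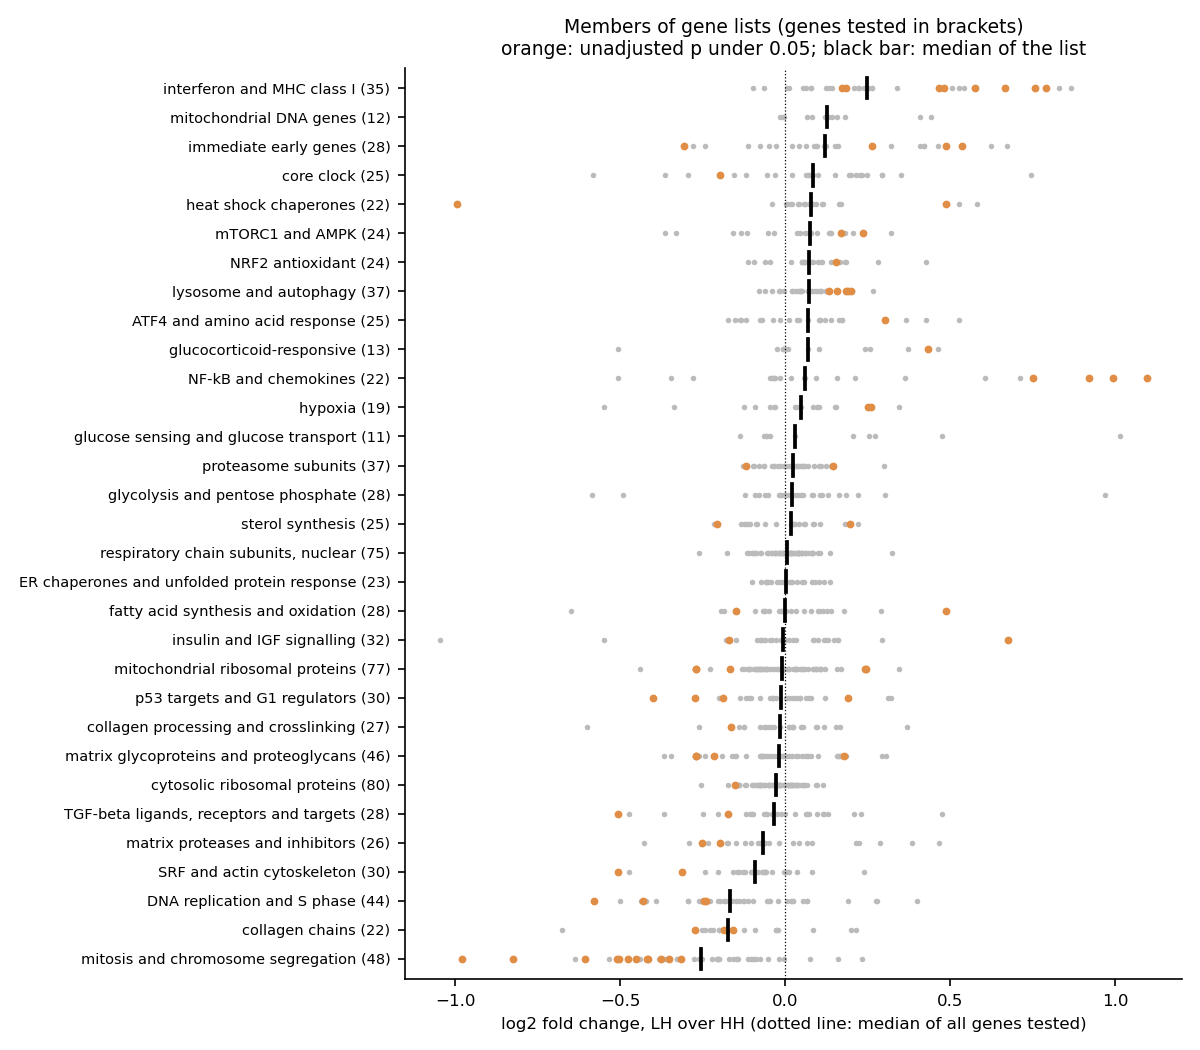
Log2 fold change of LH over HH (x axis) of the members of gene lists (y axis, with the number tested in brackets), with members of unadjusted p under 0.05 in orange and the list median as a black bar. The interferon list (median 0.247) and the mitosis list (median -0.256) lie farthest from the dotted line of all genes among lists of 10 or more members.

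The clock genes, whose reporter the cells carry, were not distinguished between LH and HH in mean level. Of 25 tested, 17 were higher and 8 lower with a median of 0.0852, and Clock, the partner of BMAL1, had an unadjusted p under 0.05 (-0.20, median 59.5 CPM in LH, 73.4 CPM in HH, adjusted p = 0.852). By library number Clock had -0.05. Arntl, which encodes BMAL1, had 0.35 (95% interval -0.14 to 0.84), Per2 -0.30 (-0.94 to 0.35), Per1 0.07 (-0.25 to 0.39), Cry1 0.23 (-0.11 to 0.57), Nr1d1 0.06 (-0.40 to 0.52) and Dbp 0.19 (-0.32 to 0.71). These genes cycle, and their levels spread widely within each group. Nr1d1, a repressor of Arntl, ranged from 5.44 to 210 CPM in LH and from 3.21 to 163 CPM in HH, so that intervals of the mean difference are wide. With limma voom 11 of the 25 were higher, 1 higher and 5 lower past the unadjusted threshold, and the median was -0.0394. The sign of Nr1d1, Dbp, Per1 and Cry1 changed in some alternatives, that of Nr1d1 also on leaving out 1 library (-0.10 without LH collection 6 replicate 1). Leaving out 1 library moved Per2 to between -0.39 and -0.13, Dbp to between 0.01 and 0.29, Per1 to between 0.02 and 0.13 and Cry1 to between 0.13 and 0.31, with the value nearest 0 without HH collection 5 replicate 2, LH collection 3 replicate 4, LH collection 1 replicate 4 and LH collection 2 replicate 1.

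Whether 1 mean difference describes all collections was tested with the 5 interaction terms of treatment and collection. Of 12932 genes, 49 had an adjusted p under 0.05 for the interaction (0.379%) and 1918 an unadjusted one (14.8%). The smallest belonged to Timp1 (edgeR adjusted p = 0.000606), whose LH libraries of collection 1 held 111 to 131 CPM and HH libraries 321 to 370 CPM, while its difference in collections 3 to 5 was 0.26, 0.31 and 0.19. It was followed by the metallothionein Mt2, the G protein-coupled estrogen receptor Gper1, Cry1 and the protease Mmp16 (adjusted p = 0.0143 each), whose mean difference of -0.20 was -0.12 without LH collection 2 replicate 1. Mt2 and Gper1 were named after their values were seen. Gper1 stood at 244.6 CPM in LH collection 2 replicate 1 and at most at 9.53 CPM in the other 40 libraries. Egr1 differed in collections 1 and 2 by 2.04 and 1.21 and in collections 3 to 6 by -0.12, -0.15, -0.24 and 0.64. The WNT inhibitor Dkk2, chosen after its values were seen, held 536 to 682 CPM in the LH and 218 to 230 CPM in the HH libraries of collection 1.

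Within collections, adjusted calls were found in the first 2 of them. LH and HH differed at 46 genes in collection 1 (0.356%), 14 higher (0.108%) and 32 lower (0.247%) in LH, and at 1359 genes in collection 2 (10.5%), 752 higher (5.82%) and 607 lower (4.69%). In collections 3 to 6 edgeR called 0 genes (0%), and 1.62%, 3.84%, 1.93% and 6.63% of the genes, between 209 and 858, had an unadjusted p under 0.05. In collection 2 markers of other cell types moved too. All 9 macrophage and leukocyte markers tested were higher in LH (median log2 fold change 2.48), 4 of them past the adjusted threshold, and their sum was 60.9, 648 and 50.1 CPM in LH replicates 1, 2 and 4 and 17.8 to 34.4 CPM in HH. All 5 adipocyte markers tested were higher (median 2.82), 2 of them past it, with sums of 12.2, 57.2 and 99.7 CPM in LH replicates 1, 2 and 4 and 2.75 to 6.51 CPM in HH. Without the shallow library the medians were 0.875 and 2.98, each list with 2 members past the threshold, and without LH collection 2 replicate 1 they were 3.31 and 3.26. By library number 6 of 9 and 3 of 4 were higher and none passed it. Of the fibroblast markers 1 was higher and 5 were lower past the threshold (median -0.237). The part of these cell types in the calls of collection 2 was not tested. Without LH collection 2 replicate 1, collection 1 had 139 and collection 2 had 317 calls (2.46%), and without the shallow library they had 58 and 1630. By library number collection 5 has 1 LH library, assumed to vary like the other groups, and the count was 0 in all 6 collections, with 230 to 1943 genes at an unadjusted p under 0.05. In the read summary the LH libraries of collections 1 and 2 carry an LH name of collection 6 or are not listed. Those of collections 3 to 6 all carry an HL name, several of them of another collection. The effect of treatment and of naming cannot be told apart in any collection.

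**Figure D5:**
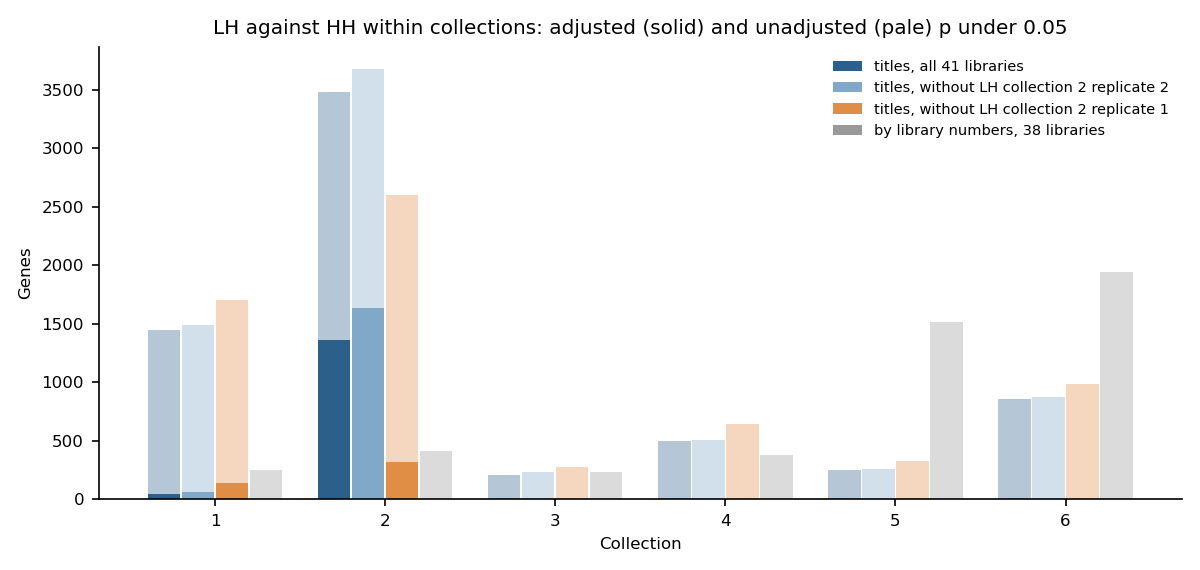
Genes that differ between LH and HH (y axis) in each collection (x axis) at an adjusted p under 0.05 (solid) and an unadjusted p under 0.05 (pale), by titles with all 41 libraries, without either of 2 LH libraries of collection 2, and by library numbers. By titles collection 2 holds 1359 adjusted calls, and by library numbers every collection holds 0.

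The genes that set LH collection 2 replicate 1 apart can be shown by 4 of them, chosen after their values were seen, 3 high and 1 low. The prostaglandin synthase Ptgs2 was at 265.9 CPM there and at most at 25.5 CPM in the other 40 libraries, the kinase Sgk1 at 1084 and at most 253.03 CPM, the kinase Pim1 at 389 and at most 57.9 CPM, and the VEGF receptor Kdr at 20.3 and at least 114 CPM in the others. By title it is an LH library of collection 2 and by number an LH library of collection 6.

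By library number, LH against HH gave 2 adjusted calls among 12856 genes (0.0156%) and 990 unadjusted ones (7.7%), 558 higher (4.34%) and 432 lower (3.36%). The calls were H19, an imprinted noncoding RNA, with -4.25 (SE 0.48, edgeR adjusted p = 6.57e-07) and Spock1, a testican proteoglycan, with 3.48 (SE 0.55, adjusted p = 0.00111), 1 in each direction (0.00778%). By title H19 had -1.05 (SE 0.54, adjusted p = 0.852). H19 stood near the detection limit, at 0.163, 1.46 and 3.71 CPM in the lowest, median and highest HH library, and HH alone met the condition for being tested. Spock1 did not reach 1 CPM in 3 of the 41 libraries by title, so by number it was tested only through libraries titled HL. The 2 calls thus concern genes near the filter, which each met through the group where it is higher. Both comparisons use the same HH libraries, and their LH groups share 4 libraries. When the LH and HL titled libraries were pooled against HH, which needs no decision between the names LH and HL, 0 of 13292 genes (0%) passed the adjusted threshold with edgeR and 857 (6.45%) the unadjusted one, and H2-K1 had a log2 fold change of 0.35 (adjusted p = 0.393).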

How the data were processed

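RNA of 62 libraries was sequenced by 3′DGE, single-end, in which reads come from the 3′ end of transcripts. Per the labels, the submitters' processing notes name bcl2fastq, STAR 2.6.0a, HTSeq 0.9.1 and the build mm10. The authors deposited raw gene counts, not normalized, with a separate set per run (121 sets of 31053 genes, 80 of them from LH and HH). The use of strand in counting is not given in the sources used here, so reads of overlapping and antisense genes cannot be told apart. Rows without a gene were dropped, and reads on no feature averaged 21.9% in LH and 22.4% in HH. Both runs of a library were summed (2 of the 41 libraries had 1 run). The chi-square of the counts of 2 runs, divided by its degrees of freedom, was 1.27 to 1.64, and that of 2 libraries of 1 treatment and collection was 2.92 to 77.6, so no 2 libraries were merged.

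Symbols and positions came from the GRCm38 annotation (30934 identifiers matched) and promoters from RefSeq (GRCm38.p6). Genes with at least 1 CPM in 3 of the 41 libraries were tested with edgeR 4.0.16 (R 4.3.3), TMM scaling, the quasi-likelihood test, a term for collection and Benjamini-Hochberg adjustment. Alternatives used DESeq2 1.42.0, limma 3.58.1, other scaling and filters, library numbers, each run alone, thinning, and fits without libraries, replicates or collections. Removal of 2 LH libraries of collection 2, of collections 1 and 2 together, and alternatives within collections were added after the data were seen. The scripts were tested on simulated data. Library measures were compared by permutation with 100000 resamples. CPM are counts over the library total, and levels of different genes were not compared.

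Replicate numbers did not pair the libraries: deviations of same-numbered LH and HH libraries of a collection correlated by -0.361 to 0.19 over 17 pairs. Groups came from titles. The comparison, gene lists and tests were chosen with earlier results of these data known. Named genes are those past the adjusted threshold, the 12 higher and 12 lower with the smallest p at a mean of at least 5 CPM, the 3 with the smallest p below it, the 2 members of each list with the smallest p in each direction, clock genes and 8 genes named by the study or earlier results. Further list members are given as members of small counts, and any other gene is marked in the text as picked with its values known.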

Additional observations from a re-analysis of the deposited data

Results flagged for a closer look

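In 6 of 168 groups of 4 libraries, 1 library lay far from the other 3 by Dixon's criterion, which chance meets in about 1 in 20 groups. Total counts were 8154566 in LH collection 3 replicate 1 and 8101013 in LH collection 4 replicate 4, against at most 6501620 and 5741233 in the other libraries of those groups. In CPM, Hist2h2ac was low in LH collection 4 replicate 3 (6.36, others 9.88 to 10.1), 2900060B14Rik and Parp10 were high in LH collection 4 replicate 2 (441.9, others 279.6 to 300.7, and 45.3, others 20.9 to 23.9), and Itm2a was high in LH collection 3 replicate 3 (30.3, others 25.8 to 26.2).

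The difference between LH and HH depended on the collection at 49 genes in the test of the interaction (edgeR, adjusted p under 0.05). The adjusted p was 0.000606 for Timp1 and 0.0143 for Mt2, Gper1, Cry1 and Mmp16.

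Signals like those of LH collection 2 replicate 1 appeared in HL libraries, which the comparison does not use. Ptgs2 stood at 106.6 CPM in HL collection 2 replicate 3 and 69.3 CPM in HL collection 6 replicate 3, above the 21.2 CPM of the highest HH library, and Gper1 stood at 56.0 and 33.3 CPM, above 4.70 CPM.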

How the results depend on the processing

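Beside 3 adjusted calls, the count was 3 with DESeq2, the robust fit, RLE factors, upper quartiles and library totals, and 2 by library numbers, in the first run alone and at 5 CPM. It was 1 without the shallow library, in the second run alone, without collection 3 and without the 2 LH libraries of collection 2 that stand apart, 5 with limma voom, 58 without a filter, and about 2.4e+02, of which 15 were lower in LH, for the 4 LH libraries that both sources call LH, fitted without collection. It was 0 for LH with HL, for all 62 libraries in 1 model, with no collection term, after thinning, and without collection 1, 2, 5 or 6 or collections 1 and 2. Leaving out replicates or single libraries gave 0 to 6. The unadjusted count of 743 became 1890 for the 4 LH libraries and 1683 without a filter, and 480 to 1331 without replicates or libraries (1331 without HH replicate 4). The share higher in LH among unadjusted calls was 45.5%, 34% with library totals only, 57.2% after thinning and 56.4% by library numbers. The interaction count of 49 became 177 without the shallow library, 17 without LH collection 2 replicate 1, 0 by library numbers and 0 to 532 without replicates (0 without LH replicate 3, 532 without LH replicate 4). Calls within collections 1 and 2 (46 and 1359) became 139 and 317 without LH collection 2 replicate 1, and 0 and 0 by library numbers. The replicate block, whose numbers do not pair the libraries, gave 1 adjusted and 704 unadjusted calls.

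Among genes named for an unadjusted p under 0.05, the differences that changed sign were those of Gstm1 (-0.00733) and Adm (-0.00295) for the 4 LH libraries, Col1a1 (0.0157), Lox (0.0783), Fbln2 (0.0135) and Timp1 (0.000891) by library numbers, Lox (0.00343) for LH with HL, Myc (0.0241) after thinning, and Lig1 (0.00875), Lox (0.018), Timp1 (0.0726), Egr3 (-0.0992) and Angptl4 (-0.077) without collections 1 and 2. Among clock genes without such a p, Nr1d1 changed sign in 10 of 75 alternatives (lowest -0.789), Dbp in 5 (-1.215), Per1 in 6 (-0.133) and Cry1 in 2 (-0.151). With limma voom Nr1d1 had -0.454 and Dbp -0.363, and by library numbers Dbp had -0.0875 and Per1 -0.0435. The causes were not tested. Genes below 1 CPM are limited by depth.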

Other observations

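In the shallow LH library, 8 of 10 macrophage and leukocyte markers lay above all other 40 libraries. They included Lyz2, lysozyme of myeloid cells, with 22 counts (210 CPM, other libraries at most 18.3 CPM) and Csf1r, the macrophage growth factor receptor, with 18 counts (172 CPM). The summed level of the 10 markers was 648 CPM on 68 counts, against at most 60.9 CPM in the other 40 libraries.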
